A study of Mus musculus with 6 samples.

Results

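The heat shock proteins and chaperones described here were the 82 genes, of 17866 in the deposited table, whose symbols began with Hspa, Hspb, Hspd, Hspe, Hsph, Dnaja, Dnajb, Dnajc, Cct or Pfdn followed by a digit, or with Hsp90. They were chosen by name and not by their values. RNA came from the corneal epithelium of C57BL/6 mice at 6 months of age, with 3 libraries labelled WT and 3 labelled KO. In the study the KO mice were Krt14-Cre; Rela f/f, so Rela, which encodes the p65 subunit of NF-κB, was deleted in K14-expressing epithelia, which include conjunctiva, skin and other epithelia besides the cornea, and the labels name no treatment for either group. Cells that do not express Krt14-Cre would keep the gene, and the labels gave the controls only as WT. Each library held between 20158404 and 20880347 estimated counts, and differences between genotypes were taken from the normalized count per 1000000 (CPM) scaled by trimmed-mean (TMM) factors, whereas levels of different genes were compared in TPM, the transcript share per 1000000, which corrects for gene length.

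Chaperones bind unfolded or partly folded proteins and keep them from aggregating. Hsp70 proteins hold and release short stretches of a client in a cycle driven by ATP, DnaJ (Hsp40) proteins bring them clients and start that cycle, and Hsp110 proteins reset it by exchanging the nucleotide. Hsp90 matures kinases and receptors, small heat shock proteins bind clients without ATP, and the ring-shaped chaperonins Hsp60 (mitochondrial) and CCT (cytosolic) fold proteins in a closed chamber, with prefoldin handing actin and tubulin to CCT. Many of these genes are induced through heat shock elements by heat shock factors, and those of the endoplasmic reticulum (ER) through ER stress elements by the unfolded protein response. The α-crystallins of the lens are small heat shock proteins too.

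Rela was checked in every library. It stood at 85.7, 85.8 and 87.8 CPM in WT and 16.1, 11.2 and 15.6 CPM in KO, which left 16.5% of its mean WT level. The KO epithelium also differed from the WT epithelium in its markers, and these values stand beside every result below, whose relation to them was not tested. Summed over 8 corneal epithelium markers (Krt12, Krt5, Krt15, Pax6, Aldh3a1, Tkt, Upk1b and Slurp1), the level was 116883 to 123235 TPM in WT and 23286 to 26752 TPM in KO, and 7 of the 8 were lower. The 6 epidermis markers (Krt1, Krt10, Lor, Flg, Krtdap and Tgm3) were all higher and summed to 14.6 to 21.7 TPM in WT and 15252 to 22951 TPM in KO. Other markers summed to far less. The 8 stromal markers, of which 5 were higher and 1 lower, gave 5.30 to 6.13 TPM in WT and 15.0 to 27.2 TPM in KO, with Lum at 0 counts in every WT library. The 4 goblet cell markers, 3 of them higher, gave 2.85 to 5.21 TPM and 10.6 to 32.6 TPM, with Muc5ac and Tff1 at 0 counts in every WT library. The 8 immune cell markers, 5 higher and 1 lower, gave 178 to 205 TPM and 187 to 253 TPM. The 8 muscle markers, 2 higher, gave 4.53 to 5.74 TPM and 11.1 to 20.04 TPM, 4 endothelial markers, 1 higher, gave 0.73 to 1.03 TPM and 1.08 to 1.57 TPM with Kdr at 0 counts in every WT library, and the 4 glial markers, 1 lower, gave 1.45 to 1.81 TPM and 0.70 to 1.02 TPM. In such bulk samples fewer cells of a type and less RNA per cell cannot be told apart.

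Of the 82 chaperone genes, 74 had enough counts to be tested, and 36 of these were higher and 14 lower in KO at an adjusted p of 0.05 (edgeR quasi-likelihood test, Benjamini-Hochberg adjustment over all 13305 genes tested). This was 67.6% of those tested, beside 62% of all genes. By direction, 48.6% of the tested chaperone genes were higher and 18.9% lower, beside 31.8% and 30.2% of all genes. Their median log2 fold change was 0.29, beside 0.01 for all genes, and with a correction for gene length it was -0.08, beside -0.23. That correction, which turned the balance to 23 higher and 28 lower (all genes 22.5% and 43.0%), changed the log2 fold change of a gene by -0.15 in the median over all genes. The median log2 fold change of all genes fell with length, from 0.30 in the shortest of 4 equal classes to -0.18 in the longest, and 23 tested chaperone genes were in the shortest class and 11 in the longest. With total counts in place of TMM factors, 28 chaperone genes were higher and 20 lower, beside 27.9% and 34.8% of all genes. In 57 of the 74 the 3 KO values did not overlap the 3 WT values, beside 68.6% of all genes.

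**Figure D1:**
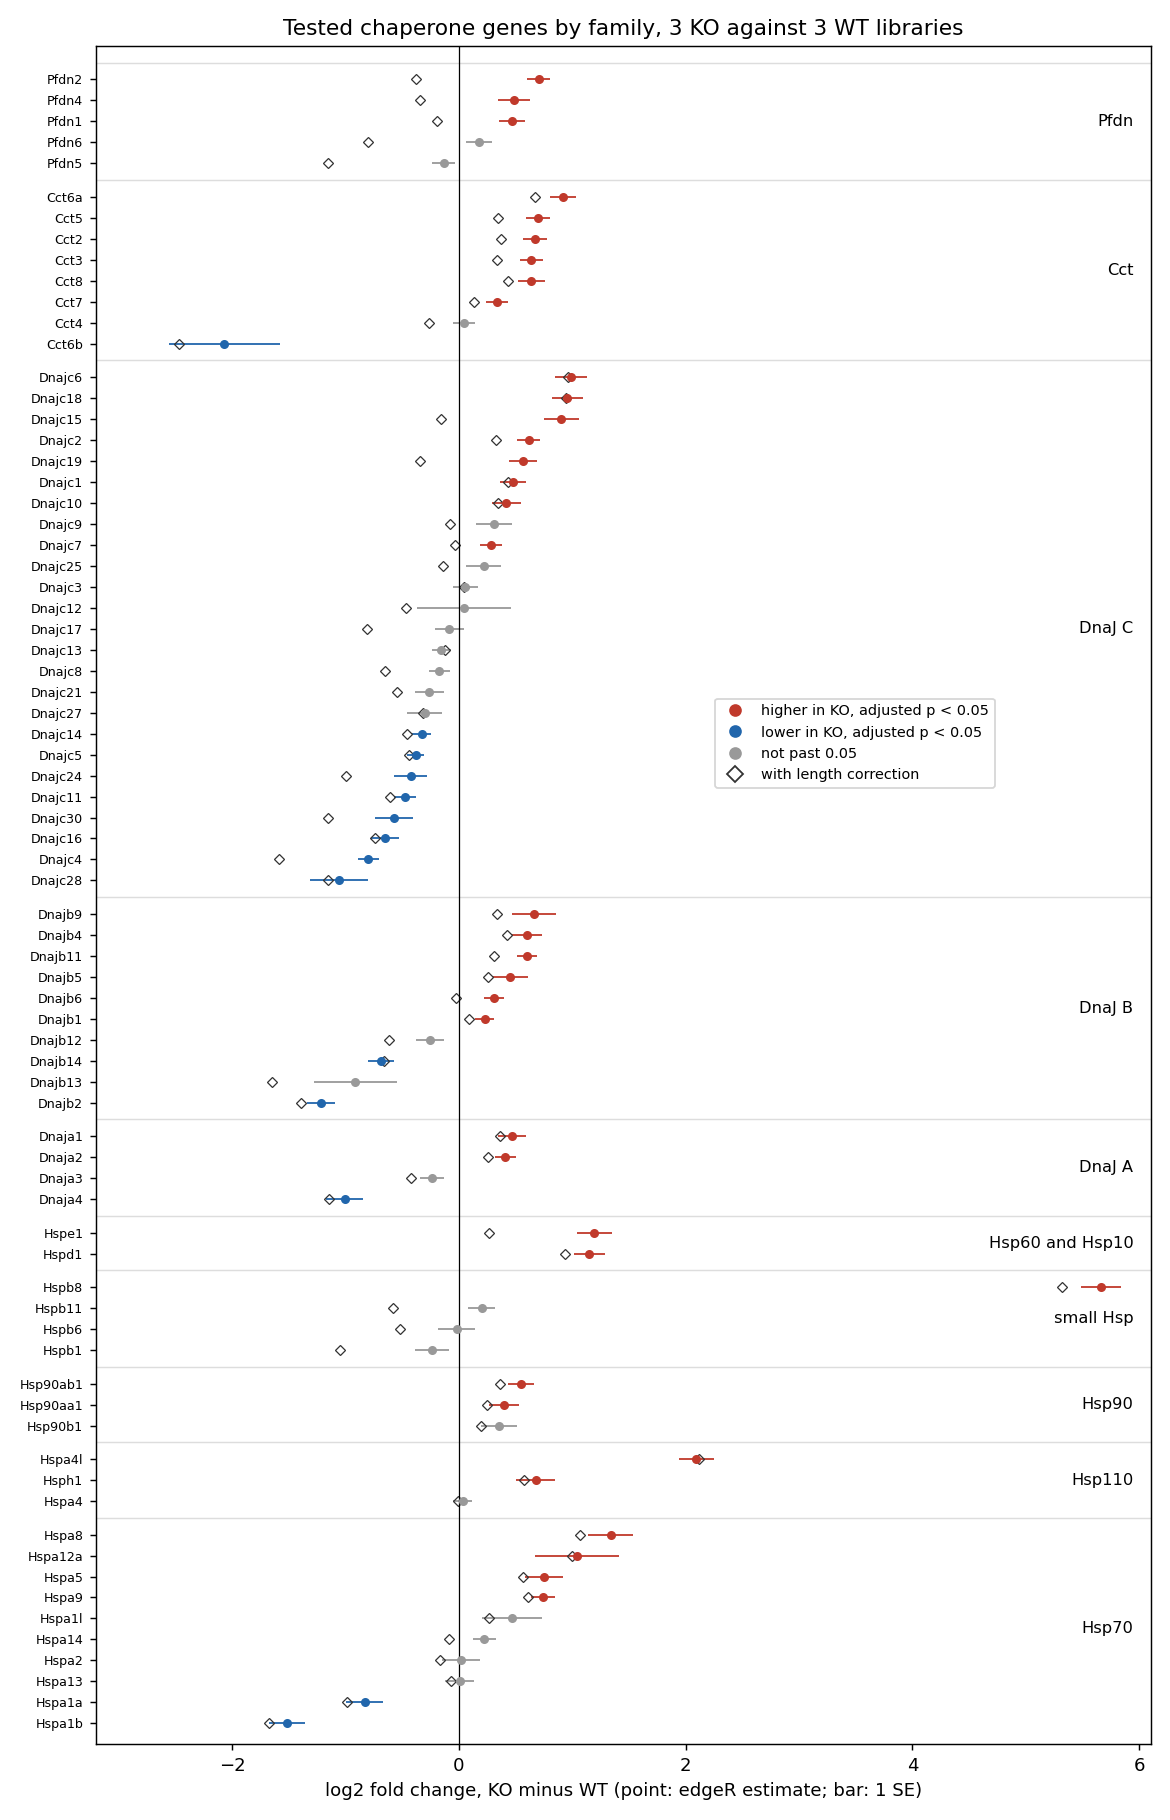
Log2 fold change (KO minus WT) of the 74 tested chaperone genes, grouped by family, with points for the edgeR estimate, bars of 1 SE from 3 libraries per group, and open diamonds for the estimate with length correction. Hspb8 stands far to the right at 5.66, Cct6b and Hspa1b farthest to the left, and the diamonds of all 5 Pfdn genes lie left of 0 although 4 of their points lie to the right.

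At the study's own threshold (adjusted p of 0.001 or less and a fold change of at least 2), 5 chaperone genes were higher and 3 lower, beside 11.6% and 8.24% of all genes, or 19.8% in either direction. The 5 were Hspa8, Hspa4l, Hspb8, Hspd1 and Hspe1, and the 3 were Hspa1b, Dnaja4 and Dnajb2. Without WT replicate 1, or without WT replicate 3, 2 genes were left among the higher ones.

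Promoter sequences (RefSeq, GRCm38.p6, 250 bases before to 50 after the start) matched 67 of the 82 genes. The other 15 are Cct4, Dnajc2, Dnajc5, Dnajc11, Dnajc12, Dnajc18, Dnajc22, Dnajc30, Hsp90aa1, Hsp90ab1, Hspa8, Hspa9, Hspa13, Hspb2 and Pfdn1. Of the 67 matched, 18 (26.9%) held a heat shock element taken as GAA and TTC in either order with 2 bases of any kind between, read on both strands, beside 17% of 27025 genes. A longer element of 3 such units in alternating order, which contains the shorter one, was found in Dnajb6, Hspd1, Hspe1 and Hsph1 (5.97%), beside 0.662% of genes. An ER stress element (CCAAT, 9 bases of any kind, then CCACG) was found in Hspa5, Hsp90b1 and Dnajc3 (4.48%), beside 0.137% of genes. The sites below belong to genes with an element that are among those with the clearest differences, or to the named ER genes. Capitals mark the element. Of the genes past the study's threshold, Hspa4l and Dnajb2 held no element in this window, and Hspa8 had no matched promoter. Dnaja4 and Hsp90b1 each hold a further site that is not printed, 52 and 107 bases before the start. The distance for Hspd1 is from the start of the promoter that holds the element, and another Hspd1 promoter holds none.
Hspa1a, chr17:34972243-34972270, minus strand, 104 bases before the start: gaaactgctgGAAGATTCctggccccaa
Hspa1b, chr17:34959325-34959352, minus strand, 104 bases before the start: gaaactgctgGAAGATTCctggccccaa
Hspe1, chr1:55088053-55088082, plus strand, 89 bases before the start: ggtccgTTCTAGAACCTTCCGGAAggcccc
Hspd1, the same bases on the minus strand, 144 bases before the start: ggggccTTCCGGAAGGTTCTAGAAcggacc
Hspb8, chr5:116422845-116422872, minus strand, just after the start: gaagccaggaGAAGTTTCtaggctcgcg
Dnaja4, chr9:54699459-54699486, plus strand, 90 bases before the start: gaacctccgcGAACGTTCtgggcctatg
Hspa5, chr2:34772020-34772048, plus strand, 65 bases before the start: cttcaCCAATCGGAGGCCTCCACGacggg
Hsp90b1, chr10:86705633-86705661, minus strand, 212 bases before the start: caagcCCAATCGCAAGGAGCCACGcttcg
Dnajc3, chr14:118937822-118937850, plus strand, 105 bases before the start: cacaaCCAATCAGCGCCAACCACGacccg

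The Hspa1a and Hspa1b promoters were identical at 296 of 300 positions. Hspd1 and Hspe1 lie head to head. The Hspd1 promoter with the printed site shares 285 bases with that of Hspe1. They hold a single element of 4 units that is read from either side. Another Hspd1 promoter shares 4 bases with that of Hspe1 and holds no element. From the start of that promoter the printed site lies downstream. Genes with the short heat shock element went both ways: of 17 tested, 11 were higher and 3 lower. Of 44 tested without it, 18 were higher and 8 lower. Among all genes tested, with or without an element, 31.8% were higher and 30.2% lower. Whether the calls differ with the element was not tested. All 4 genes with the longer element were higher in KO, though with the length correction Dnajb6 was at -0.02 and Hspe1 lost its call. A match describes the letters in this window only.

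In the Hsp70 family the mainly constitutive Hspa8 was higher, and the stress-inducible pair Hspa1a and Hspa1b was lower. Of 11 genes, 10 were tested, 4 were higher and 2 lower, beside 31.8% and 30.2% of all genes. Their median log2 fold change was 0.35. Hspa1b, an Hsp70 gene that is strongly induced by heat (chromosome 17, positions 34956429 to 34972156, GRCm38), was at 1627, 1451 and 1135 CPM in WT and at 547, 431 and 494 CPM in KO. The groups lay far apart, at 1404 ± 249 and 491 ± 58.1 CPM (mean ± SD, n = 3), and the log2 fold change was -1.52 (SE 0.16, edgeR adjusted p = 8.27e-05). Its neighbour and near copy Hspa1a (positions 34969359 to 34972156) was at 239, 279 and 280 CPM in WT and at 173, 113 and 165 CPM in KO, again without overlap, with a log2 fold change of -0.83 (edgeR adjusted p = 0.00242). The deposited span of Hspa1b contains Hspa1a, but the RefSeq promoter of Hspa1b lies at 34959189 to 34959488, outside the Hspa1a span. The counts of both genes were not whole numbers in any library, so the division of reads between these near copies is uncertain. Counted together, the pair came to 40733, 37188 and 29883 estimated counts in the WT libraries and to 14210, 10840 and 13230 in the KO libraries. The pair was thus lower as well, with a log2 fold change of -1.38 (SE 0.153, edgeR adjusted p = 0.000106).

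Hspa8, the constitutive Hsp70 (Hsc70) that also uncoats clathrin vesicles (chromosome 9, positions 40801273 to 40805200), was at 448, 583 and 348 CPM in WT and at 960, 1257 and 1267 CPM in KO. All KO libraries were above all WT libraries, and the log2 fold change was 1.34 (SE 0.2, edgeR adjusted p = 0.000547). On the TPM scale, per length, Hspa8 was at 0.322, 0.452 and 0.329 times the level of the Hspa1a and Hspa1b pair in the WT libraries and at 1.79, 3.10 and 2.58 times in the KO libraries. The inducible pair was therefore the more abundant message in every WT library and Hspa8 in every KO library.

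Among the Hsp70 genes of organelles, Hspa5 (BiP, the Hsp70 of the ER) was at 239, 331 and 253 CPM in WT and at 385, 446 and 553 CPM in KO, a log2 difference of 0.75 (edgeR adjusted p = 0.00496). Hspa9 (mortalin, the mitochondrial Hsp70) was at 111, 133 and 112 CPM in WT and 182, 205 and 209 CPM in KO, a log2 difference of 0.74 (edgeR adjusted p = 0.000422). In both genes every KO value exceeded every WT value. Hspa12a, a distant relative at 0.275 to 0.558 CPM in WT and 0.709 to 1.00 CPM in KO, was also called higher (log2 fold change 1.04, edgeR adjusted p = 0.0368), but this call was lost in 10 of the 15 alternatives that tested it, among them leaving out WT replicate 1 or 3 or any KO library. Hspa13 (0.01), Hspa14 (0.23), Hspa1l (0.47) and Hspa2 (0.02), the last 2 best known from the testis, did not pass the test, and Hspa12b, at under 0.5 CPM throughout, was not tested.

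**Figure D2:**
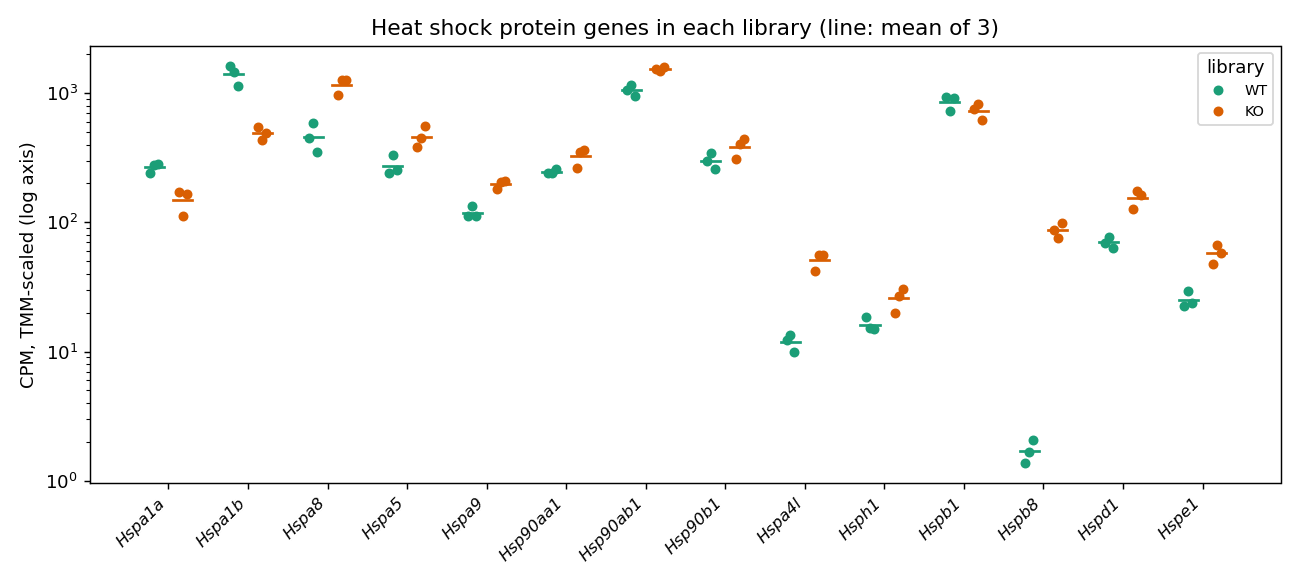
TMM-scaled CPM (log axis) of 14 heat shock protein genes in each of the 3 WT and 3 KO libraries, with lines at the mean of 3. The KO points of Hspa1a and Hspa1b lie below their WT points, those of Hspa8, Hspa4l, Hspd1, Hspe1 and Hspb8 lie above, and those of Hspb1 and Hsp90b1 overlap.

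Of the 3 Hsp110 genes, which exchange nucleotide on Hsp70, 2 were higher, beside 31.8% of all genes. Hspa4l (chromosome 3, positions 40744404 to 40826210) was at 12.2, 13.5 and 9.99 CPM in WT and at 41.8, 55.5 and 55.4 CPM in KO. Its log2 fold change of 2.10 (SE 0.158, edgeR adjusted p = 1.42e-05) was the next largest rise among the chaperone genes after Hspb8, and was 2.12 with the length correction. Its counts were not whole in any library, and its span overlaps Plk4 and Mfsd8. Hsph1 (Hsp105) was at 18.5, 15.1 and 14.9 CPM in WT and 19.9, 27.1 and 30.6 CPM in KO, a log2 difference of 0.68 (edgeR adjusted p = 0.00872), with KO replicate 1 close to the highest WT library. Hspa4, the most abundant of the 3 per length, was at 166 to 179 CPM in WT and 172 to 183 CPM in KO and did not pass the test (log2 fold change 0.03).

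The cytosolic Hsp90 genes were modestly higher. Hsp90ab1, the constitutive form (chromosome 17, positions 45567778 to 45573261), was at 1055, 1157 and 951 CPM in WT and at 1542, 1490 and 1603 CPM in KO. The groups were well separated, with a log2 fold change of 0.55 (SE 0.115, edgeR adjusted p = 0.00317). The inducible Hsp90aa1 was at 241, 239 and 259 CPM in WT and 264, 351 and 361 CPM in KO (log2 fold change 0.40, edgeR adjusted p = 0.0262), a call lost in 8 of 16 alternatives, among them leaving out WT replicate 1, WT replicate 2, KO replicate 2 or KO replicate 3. Hsp90b1 (Grp94), the Hsp90 of the ER, was at 299, 341 and 257 CPM in WT and 307, 404 and 438 CPM in KO, and these overlapping groups did not pass the test (log2 fold change 0.36, edgeR adjusted p = 0.0792). It was called higher without WT replicate 2 (0.47) or without KO replicate 1 (0.49).

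Among the small heat shock proteins a gene of low level in WT rose and the most abundant did not pass the test. Hspb8 (chromosome 5, positions 116406815 to 116422864), which works with the co-chaperone Bag3 in clearing misfolded proteins, was at 1.37, 1.67 and 2.08 CPM in WT and at 87.3, 75.0 and 98.3 CPM in KO. This was 50.8 times the WT level, a log2 fold change of 5.66 (SE 0.179, edgeR adjusted p = 2.73e-07), or 5.32 with the length correction, and the largest difference in either direction among the chaperone genes. Hspb1 (Hsp27), the chaperone gene of the highest mean level, was at 933, 724 and 921 CPM in WT and at 750, 821 and 614 CPM in KO. Its groups overlapped and it did not pass the test (log2 fold change -0.24, edgeR adjusted p = 0.194), although with the length correction it was called lower at -1.05. Hspb1 held 19.95% to 26.28% of the summed TPM of all chaperone genes in WT and 14.68% to 19.32% in KO. Per length, the level of Hspb1 was 1398, 888 and 908 times that of Hspb8 in the WT libraries and 17.6, 22.5 and 12.8 times in the KO libraries.

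Of the other small heat shock protein genes, Hspb6, at 4.78 to 5.49 CPM in WT and 4.61 to 5.77 CPM in KO, did not pass the test (-0.02). Nor did Hspb11, which encodes an intraflagellar transport protein in spite of its symbol (0.20). With the length correction both were called lower, at -0.52 and -0.58. Hspb2, a muscle small heat shock protein, was at 4.45, 1.15 and 12.71 estimated counts in WT and at 1, 0 and 0 in KO, and its span overlaps Cryab and Dixdc1. Estimated counts for Hspb7 were 0, 0 and 1.63 in WT and 0, 6.58 and 0 in KO, those for Hspb9 were 3, 3 and 2 in WT and 6, 2 and 5 in KO, and Hspb3 did not exceed 3 counts in any library. These 4 were not tested. A count of 0 allows up to 3 counts, which is 0.137 to 0.152 CPM at this depth, and such limits cover counting error only.

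The mitochondrial chaperonin and its lid rose together. Hspd1 (Hsp60, chromosome 1, positions 55077637 to 55088217), which forms the folding chamber, was at 69.1, 77.3 and 63.3 CPM in WT and at 127, 175 and 163 CPM in KO, a log2 difference of 1.15 (SE 0.136, edgeR adjusted p = 0.000151). Hspe1 (Hsp10, positions 55088148 to 55091317), which closes it, was at 22.4, 29.2 and 23.8 CPM in WT and at 47.4, 67.1 and 58.1 CPM in KO, a log2 difference of 1.19 (SE 0.154, edgeR adjusted p = 0.000243). No KO library overlapped a WT library in either gene, and both rose by about the same factor, to 2.22 and 2.29 times the WT level. Hspe1 is the shorter gene, and the length correction left it at 0.27 without a call, while Hspd1 stayed called at 0.93. The genes overlap at their starts, and the sources used here do not say if reads were counted by strand.

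The 42 DnaJ genes, 39 of them tested, split into 16 higher (41.0%) and 11 lower (28.2%), beside 31.8% and 30.2% of all genes, with a median log2 fold change of 0.05. In the DnaJ A class, which resembles the bacterial protein most closely, Dnaja2 was at 142, 150 and 139 CPM in WT and 182, 207 and 183 CPM in KO (log2 fold change 0.41, edgeR adjusted p = 0.0047). Dnaja1, the partner of Hspa8 that is also induced by heat, was at 43.1, 49.8 and 48.5 CPM in WT and 54.2, 70.7 and 70.7 CPM in KO (0.47, edgeR adjusted p = 0.0107). Dnaja4 went the other way, with 67.3, 48.5 and 52.5 CPM in WT and 31.9, 22.9 and 28.9 CPM in KO. Its level in KO was 49.7% of that in WT (log2 fold change -1.01, SE 0.162, edgeR adjusted p = 0.000799). Dnaja3 (Tid1), a mitochondrial DnaJ, did not pass the test at -0.23, and was called lower with total counts, on either FPKM scale, without WT replicate 2 and with the length correction. The class median of 0.09 became -0.01 with total counts and -0.08 with the length correction, beside 0.01, -0.09 and -0.23 for all genes.

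In the DnaJ B class 6 of 10 tested genes were higher and 2 lower, beside 31.8% and 30.2% of all genes. With total counts 3 were higher and 4 lower, beside 27.9% and 34.8% of all genes. With the length correction 2 were higher and 4 lower, beside 22.5% and 43.0%. Without KO replicate 3, 2 of 11 tested were higher and 2 lower. The class held both heat-inducible and ER-resident members. Dnajb2, a DnaJ with ubiquitin-binding motifs that is best known from neurons, was at 66.2, 66.2 and 60.3 CPM in WT and at 32.5, 24.1 and 26.5 CPM in KO. The groups were far apart, with a log2 fold change of -1.21 (SE 0.123, edgeR adjusted p = 6.57e-05). Dnajb14, anchored in the ER membrane, was at 43.8, 34.1 and 38.2 CPM in WT and 22.6, 24.8 and 24.6 CPM in KO (-0.69, edgeR adjusted p = 0.000997). Its close relative Dnajb12 did not pass the test (-0.26), nor did Dnajb13, a sperm flagellum gene at under 1 CPM in every library (-0.91). Both were called lower with total counts, on either FPKM scale and with the length correction (-0.61 and -1.65). Dnajb12 was also called lower without KO replicate 1.

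Of the higher DnaJ B genes, Dnajb9 (ERdj4), which helps to clear misfolded ER proteins, was at 17.2, 30.2 and 22.5 CPM in WT and 36.1, 33.0 and 41.6 CPM in KO. Its log2 fold change of 0.66 (edgeR adjusted p = 0.017) was not called without KO replicate 3 or with the length correction. Dnajb11 (ERdj3), a partner of BiP, was at 38.3, 43.9 and 40.0 CPM in WT and 60.7, 60.5 and 64.3 CPM in KO (0.60, edgeR adjusted p = 0.000518). Here the spread within each group was small. Dnajb4 was at 29.5, 39.6 and 37.1 CPM in WT and 48.2, 54.3 and 58.8 CPM in KO (0.60, edgeR adjusted p = 0.00408). The most abundant members of the class differed little: Dnajb6, a suppressor of polyglutamine aggregation, was at 121, 119 and 135 CPM in WT and 158, 148 and 159 CPM in KO (0.31, edgeR adjusted p = 0.0153, and -0.02 with the length correction), and Dnajb1, the heat-inducible Hsp40, was at 118, 118 and 129 CPM in WT and 139, 141 and 147 CPM in KO (0.23, edgeR adjusted p = 0.0385). These calls, and that of Dnajb5 (0.45), were lost in 7, 9 and 9 of the 16 alternatives, leaving out 1 library among them: without WT replicate 1 or KO replicate 3 for all 3, without WT replicate 2 for Dnajb6 and Dnajb1, without KO replicate 2 for Dnajb1 and Dnajb5, and without KO replicate 1 for Dnajb5. Dnajb3 and Dnajb7 were too low to be tested, and Dnajb7 exceeded 3 counts in WT replicates 2 and 3 but in no KO library.

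The DnaJ C class, which has only the J domain in common, held 8 genes higher and 8 lower among 25 tested (32.0% each, close to the 31.8% and 30.2% of all genes), with a median log2 fold change of -0.09. With total counts 6 were higher and 11 lower, beside 27.9% and 34.8% of all genes. With the length correction 5 were higher and 12 lower, beside 22.5% and 43.0%. The class median was then -0.34, beside -0.23 for all genes. Dnajc6 (auxilin), which recruits Hspa8 to clathrin coats, was at 17.2, 13.6 and 17.2 CPM in WT and at 36.7, 31.1 and 27.6 CPM in KO, a log2 difference of 0.99 (edgeR adjusted p = 0.000484). Dnajc18 was at 6.87, 6.79 and 5.40 CPM in WT and 12.5, 11.99 and 12.6 CPM in KO (0.96, edgeR adjusted p = 0.000443). Both kept the size of their rise with the length correction, at 0.97 and 0.94, being long genes. Dnajc15, of the mitochondrial import motor, was at 8.84, 10.002 and 8.38 CPM in WT and 13.9, 19.3 and 17.8 CPM in KO (0.90, edgeR adjusted p = 0.00103). With the length correction this short gene was at -0.16 without a call, and Dnajc19, of the same motor, turned from 0.57 to -0.34 and was then called lower. The smaller rises were those of Dnajc2 (0.61), which sits on the ribosome, the ER genes Dnajc1 (0.48) and Dnajc10 (0.42), and Dnajc7 (0.28, or -0.03 with the length correction). The call of Dnajc10 was lost without WT replicate 1, WT replicate 3, KO replicate 2 or KO replicate 3, and that of Dnajc7 without WT replicate 1, KO replicate 2 or KO replicate 3.

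Of the lower DnaJ C genes, Dnajc28 was at 5.73, 3.86 and 4.59 CPM in WT and 1.77, 2.11 and 2.94 CPM in KO (log2 fold change -1.05, edgeR adjusted p = 0.0068). Dnajc4 was at 34.1, 31.6 and 34.3 CPM in WT and 18.3, 20.2 and 19.0 CPM in KO (-0.80, edgeR adjusted p = 0.000163). Dnajc16 was at 31.6, 28.8 and 25.3 CPM in WT and 19.5, 16.1 and 19.0 CPM in KO (-0.65, edgeR adjusted p = 0.00215). In these 3 genes no KO library reached a WT library. The other 5 were Dnajc30 (-0.57) and Dnajc11 (-0.48), both mitochondrial, Dnajc24 (-0.43), which serves diphthamide synthesis, Dnajc5 (-0.38), the cysteine string protein of secretory vesicles, and Dnajc14 (-0.33). The calls of Dnajc24 and Dnajc30 were lost without WT replicate 1, WT replicate 3 or KO replicate 2, that of Dnajc24 also without KO replicate 1 and that of Dnajc30 without KO replicate 3. Dnajc8, a splicing-associated gene and by TPM the most abundant of the class, was at 107, 101 and 117 CPM in WT and 89.3, 97.6 and 101 CPM in KO and did not pass the test (-0.17, edgeR adjusted p = 0.133), but was called lower with total counts and with the length correction. Dnajc3 (p58IPK), an ER gene with an ER stress element, was at 98.1, 99.9 and 99.2 CPM in WT and 86.1, 110 and 113 CPM in KO, and did not pass the test either (0.06). The other 7 tested genes without a call lay between -0.30 (Dnajc27) and 0.31 (Dnajc9), the endosomal Dnajc13 being at -0.15, and Dnajc22 had at most 1 count in any library and was not tested.

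Most subunits of the cytosolic chaperonin CCT were higher. Of its 8 ring positions, 7 are covered by Cct genes of the set (Cct2 to Cct5, Cct6a, Cct7 and Cct8) and the remaining one by Tcp1, which was taken from a separate list. Cct6a was at 106, 125 and 109 CPM in WT and 190, 240 and 214 CPM in KO, a log2 difference of 0.92 (SE 0.115, edgeR adjusted p = 0.000208). Cct5 was at 131, 145 and 128 CPM in WT and 195, 242 and 218 CPM in KO (0.70, edgeR adjusted p = 0.000638), and Cct2 was at 139, 162 and 157 CPM in WT and 221, 265 and 245 CPM in KO (0.67, edgeR adjusted p = 0.00072). Cct3 and Cct8 rose by 0.64 each, and Tcp1 was at 166, 176 and 175 CPM in WT and 270, 339 and 299 CPM in KO (0.81, edgeR adjusted p = 0.000272). In all these genes the groups did not overlap.

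Differences were smaller for Cct4 and Cct7, though whether they differ from the other subunits was not tested. Cct4 was at 129, 128 and 115 CPM in WT and at 116, 135 and 133 CPM in KO, overlapping groups that did not pass the test (log2 fold change 0.05). With the length correction it was called lower at -0.26, close to the median of -0.23 of all genes in that fit. Cct7 was called higher by a smaller amount (0.34, edgeR adjusted p = 0.0165), a call lost in 7 alternatives, among them leaving out WT replicate 1, WT replicate 3 or KO replicate 2. Per length, the highest of the 7 Cct ring genes was 1.63 to 1.66 times the lowest in the WT libraries and 1.87 to 1.98 times in the KO libraries, the lowest being Cct4 or Cct7 in KO and Cct8 or Cct3 in WT. Cct6b, the testis paralog of Cct6a, was near the detection limit at 0.641, 0.884 and 0.852 CPM in WT and 0.253, 0.0502 and 0.249 CPM in KO, and was called lower (log2 fold change -2.07, SE 0.49, edgeR adjusted p = 0.00616). With the length correction, Cct2, Cct3, Cct5, Cct6a and Cct8 stayed higher, between 0.33 and 0.67, and Cct7 was at 0.14 without a call.

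**Figure D3:**
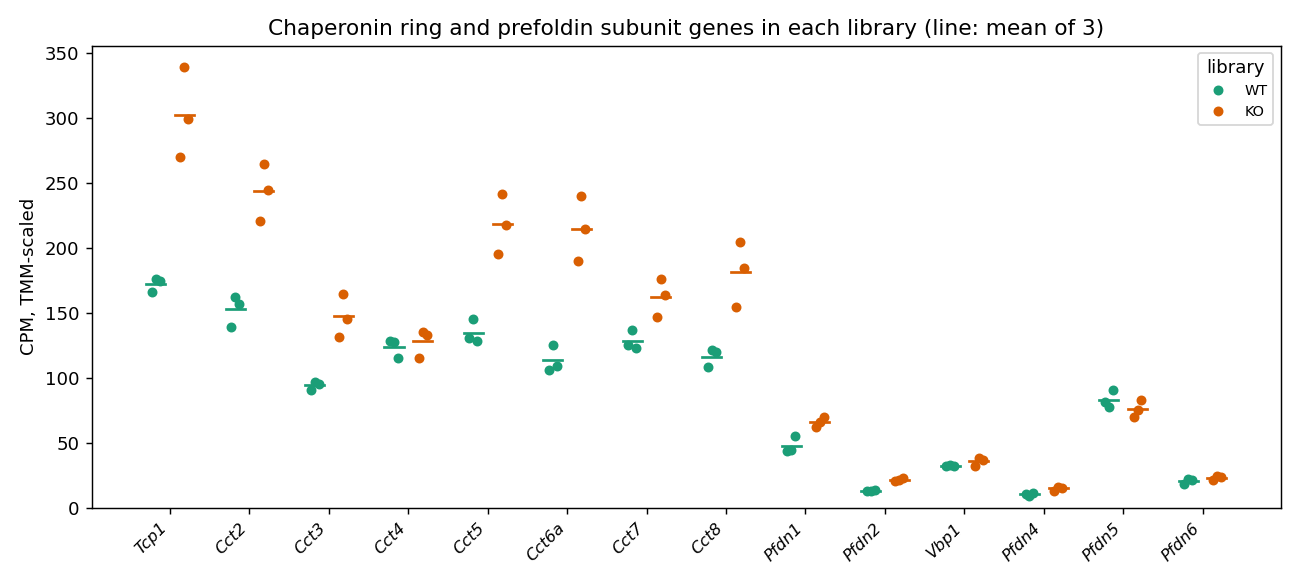
TMM-scaled CPM of the chaperonin ring genes (Tcp1, Cct2 to Cct8) and the prefoldin genes (Pfdn1, Pfdn2, Vbp1, Pfdn4, Pfdn5, Pfdn6) in each of the 3 WT and 3 KO libraries, with lines at the mean of 3. KO points lie above WT points for every ring gene but Cct4; KO points of the prefoldin genes Pfdn1, Pfdn2 and Pfdn4 also lie above WT points, and these 3 genes changed sign with the length correction.

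The rises among the prefoldin genes did not hold with the length correction. Pfdn2 was at 13.0, 13.0 and 13.8 CPM in WT and at 20.9, 20.97 and 22.9 CPM in KO, a log2 difference of 0.70 (edgeR adjusted p = 0.000443), but -0.38 with the length correction. Pfdn1 was at 43.6, 44.6 and 55.1 CPM in WT and 62.2, 65.8 and 70.0 CPM in KO (0.47, edgeR adjusted p = 0.0067, and -0.19 with the length correction), and Pfdn4 was at 10.8, 9.30 and 11.7 CPM in WT and 13.0, 16.3 and 15.3 CPM in KO (0.48, edgeR adjusted p = 0.0152, and -0.34 with the length correction), a call lost without KO replicate 2. Pfdn5, the most abundant by TPM, was at 81.5, 77.8 and 90.2 CPM in WT and 69.7, 74.9 and 82.9 CPM in KO. It did not pass the test (-0.13), but was called lower at -1.16 with the length correction. Pfdn6 (0.18, and -0.80 with the length correction) and Vbp1, which encodes the remaining subunit (0.15, and -0.25 with the length correction), did not pass the test either. With the length correction 3 of the 5 Pfdn genes were called lower, beside 43.0% of all genes, and the other 2 lay below 0 without a call. The median of all genes in that fit was -0.23. The tested Pfdn genes had a median effective length of 695 bases, beside 2854 bases for all genes tested and 1968 bases for the Cct genes.

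**Figure D4:**
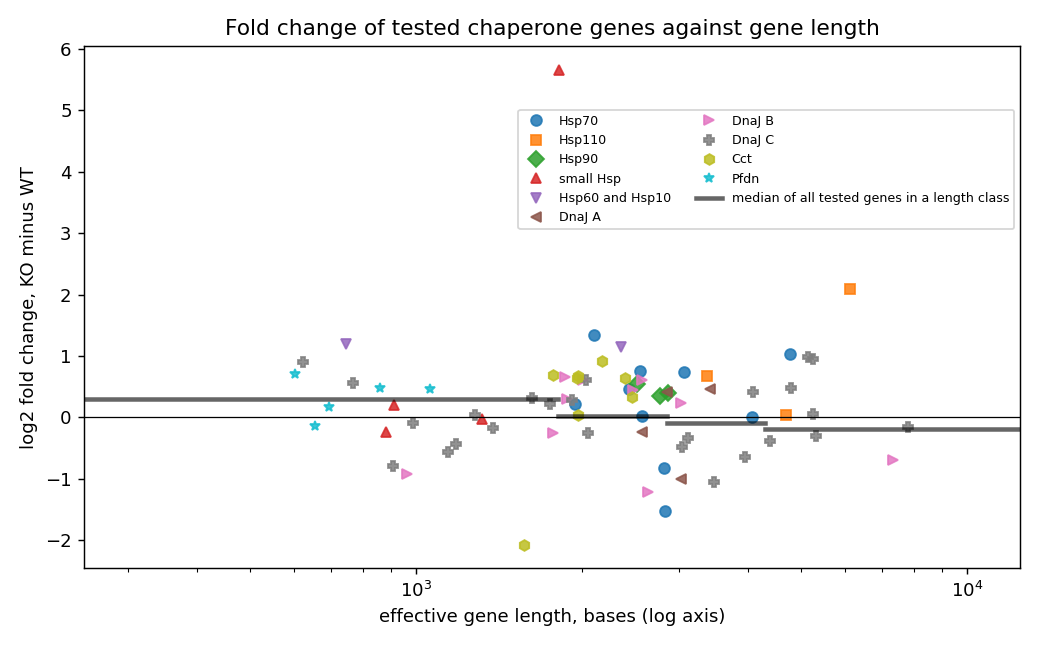
Log2 fold change (KO minus WT) of the 74 tested chaperone genes against effective gene length in bases (log axis), one symbol per family, with bars at the median of all tested genes in each of 4 length classes, which run past the axis at both ends. The bars step down from 0.30 to -0.18; the Pfdn genes and some DnaJ C genes lie at the short end, while Hspa4l, Dnajc6 and Dnajc18 are long genes with large rises.

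The groups by induction and compartment are read beside 31.8% higher and 30.2% lower of all genes, or 22.5% and 43.0% with the length correction. The 11 members listed as heat-inducible (Hspa1a, Hspa1b, Hspa8, Hsph1, Hspb1, Hspb8, Dnajb1, Dnaja1, Hsp90aa1, Hspd1 and Hspe1) gave 8 higher and 2 lower genes with a median of 0.47. With the length correction 5 were higher, and Hspb1 joined the lower ones at -1.05. Without that correction the 2 lower ones were the inducible Hsp70 pair Hspa1a and Hspa1b, and the 8 higher ones include Hspa8, which is mainly constitutive. The 10 ER members gave 5 higher (Hspa5, Dnajb9, Dnajb11, Dnajc1 and Dnajc10) and 1 lower (Dnajb14) with a median of 0.39. Without KO replicate 3 there were 3 higher ER members, and without KO replicate 1 there were 2 lower ones. The 8 mitochondrial members gave 5 higher (Hspa9, Hspd1, Hspe1, Dnajc15 and Dnajc19) and 2 lower (Dnajc11 and Dnajc30) with a median of 0.65, and the length correction turned this to 2 higher and 4 lower. The lower mitochondrial members were 1 in number without WT replicate 1, WT replicate 3, KO replicate 2 or KO replicate 3. Of the 40 tested members with the Gene Ontology term for unfolded protein binding, 23 were higher and 5 lower (median 0.40), and of the 34 tested without it, 13 were higher and 9 lower (median 0.04).

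The direction of the summed level depended on the unit. All members together were at 9063 ± 591 TPM in WT and 8157 ± 443 TPM in KO (mean ± SD, n = 3), but as a share of the estimated counts they were at 0.844% in WT and 0.910% in KO. The deposited FPKM values summed to 458582 to 477306 in WT and 542098 to 558392 in KO, and TPM is scaled by that sum. The sums for Hsp110, DnaJ A, DnaJ B and Pfdn also changed direction between the units. The Hsp60 and Hsp10 pair was higher by both, at 141 ± 18.2 TPM in WT and 250.5 ± 42.4 TPM in KO, as were Cct, at 927 ± 58.8 and 1098 ± 120 TPM, and Hsp90, at 1360 ± 153 and 1512 ± 78.7 TPM. The small heat shock proteins (2200 ± 306 and 1561 ± 217 TPM), Hsp70 (2178 ± 374 and 1836 ± 164 TPM) and DnaJ C (960 ± 14.6 and 743 ± 32.3 TPM) had lower means in KO by both units. For the small heat shock proteins the shares of counts overlapped between the groups, at 0.1003%, 0.0768% and 0.0952% in WT and 0.0817%, 0.0905% and 0.0702% in KO. Library values also overlapped for all members and for Hsp70 by both units, and for Cct and Hsp90 in TPM. The Hsp70 sum, for example, was 1749 to 2425 TPM in WT and 1658 to 1980 TPM in KO. No test was run on these sums. By mean TPM over the 6 libraries, Hspb1, Hsp90ab1, Hspa8 and Hspa1b together made up 49.16% of the sum of all members.

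Genes that regulate or assist these chaperones were taken as a further list of 35. Of these, 16 were higher and 6 lower (median log2 fold change 0.19), beside 31.8% and 30.2% of all genes, or 62% in either direction. With the length correction there were 8 higher and 14 lower, beside 22.5% and 43.0% of all genes. Hsf1, the main heat shock factor, was at 37.2, 34.6 and 33.5 CPM in WT and at 28.2, 26.2 and 28.6 CPM in KO, a log2 difference of -0.34 (edgeR adjusted p = 0.0115), not called without WT replicate 1. Hsf2 and Hsf4, factors of the same family with roles in development and in the lens, were much lower in level, and rose. Hsf2 was at 1.51, 2.28 and 1.89 CPM in WT and 6.53, 6.62 and 5.63 CPM in KO (1.72, edgeR adjusted p = 0.000171), and Hsf4 was at 0.870, 1.35 and 1.04 CPM in WT and 2.94, 2.11 and 3.19 CPM in KO (1.33, edgeR adjusted p = 0.00328).

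The largest rise of that list was in the lens crystallin Cryaa (3.09, edgeR adjusted p = 0.000596), which had no more than 3 counts in any WT library, so that its fold depends on the small count edgeR adds. Fkbp5, a glucocorticoid-induced partner of Hsp90, had the largest fall, from 22.4, 24.0 and 17.0 CPM in WT to 4.51, 4.41 and 5.38 CPM in KO (-2.15, edgeR adjusted p = 1.76e-05). Cryab, a small heat shock protein with an α-crystallin domain, was at 79.4, 52.9 and 121 CPM in WT and 29.2, 35.9 and 57.0 CPM in KO. The nearest libraries of the groups lay close to each other, and the call (-1.05, edgeR adjusted p = 0.0203) was lost without WT replicate 3, KO replicate 1 or KO replicate 2. Bag3, the partner of Hspb8, fell by 0.53 on the log2 scale (edgeR adjusted p = 0.0073) where Hspb8 rose, and Bag5 fell by 0.73 (edgeR adjusted p = 0.000703).

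Of 16 genes of the unfolded protein response, 7 were higher and 1 lower (median 0.30), beside 31.8% and 30.2% of all genes. The 3 largest rises were in Herpud1 (0.69), Manf (0.66) and the ER lectin chaperone Calr (0.61), and the fall was in Sil1 (-0.63), the nucleotide exchange factor of BiP. Xbp1, the factor whose message is spliced in this response, was at 102, 118 and 118 CPM in WT and 154, 164 and 164 CPM in KO (0.52, edgeR adjusted p = 0.00127), and Ddit3 (Chop), a marker of its late phase, did not pass the test (0.11, and -0.46 with the length correction). Of 16 immediate-early genes, which respond within minutes to handling and stress, 9 were higher and 7 did not pass the test (median 1.16), beside 31.8% higher among all genes. The largest rises were in Fosl1 (7.51), Egr3 (6.19) and Nr4a1 (4.20). Fosl1 and Egr3 had no more than 3 counts in any WT library, so that their fitted values depend on the small count edgeR adds. The abundant ones, Fos (-0.36), Junb (-0.18) and Jun (0.11), did not pass the test, and the summed level of the 16 was 1050 to 1361 TPM in WT and 899 to 1423 TPM in KO. The part of these genes, or of tissue handling, in the results for the inducible chaperones was not tested.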

How the data were processed

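The sources were 6 bulk RNA-seq libraries of mouse corneal epithelium, 3 WT and 3 KO. According to the study's methods reads were cleaned, aligned with Bowtie2 and counted with RSEM, and the submitters' processing notes name Bowtie2 2.2.5, RSEM 1.2.12 and the build mm9, whereas the gene coordinates in the deposited table are those of GRCm38. The authors deposited per library the estimated counts of RSEM, the FPKM values, which divide by length and library total, and TPM, which sums to 1000000. RSEM divides reads that fit several genes, and 29.5% to 31.3% of the estimated counts per library were not whole (tolerance 0.01). The deposited log2 fold changes and p-values of the authors' own comparison were not used. Strand in the deposited table differed from RefSeq for 8 of the 67 members with a promoter, so no strand is given from it.

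Rounded estimated counts went into the quasi-likelihood test of edgeR 4.0.16 (R 4.3.3), after filterByExpr and TMM scaling, in a model of genotype alone. Adjustment was by Benjamini-Hochberg over 13305 genes. The size of the log2 fold change over √F gave the SE. A gene was called at an adjusted p of 0.05, or by the study's stricter threshold. p-values measure the spread between 3 libraries per group. As alternatives, 16 in all, served DESeq2 1.42.0, scaling by RLE or by total counts alone, leaving genes unfiltered, requiring a mean count of 50, robust dispersion, limma 3.58.1 on log2(FPKM + 1) and log2(FPKM + 0.1), a length correction, the replicate number as a block, and leaving out each library. The length correction used offsets from a loess fit in each library. It fitted log2 CPM minus the gene's mean over all libraries against log2 effective length. It thus also takes out any genotype difference that varies smoothly with length. Counting Hspa1a and Hspa1b together was added after seeing the data. The tests were tried on simulated data. All members of the families may be named. Values per library are given for the 2 genes of highest TPM, the 3 largest rises and the 3 largest falls in each family, and genes at or under 3 counts in 1 group only, and from other lists for the 3 largest changes each way, Hsf1, Tcp1 and Vbp1. Others, such as Hspa9, Hsp90b1, Cct4, Pfdn5 and Xbp1, were added after their values were seen. The genes and lists were chosen with earlier results of these data known. Python 3.11.15 with pandas 2.3.3 and matplotlib 3.10.9 handled tables and plots.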

Additional observations from a re-analysis of the deposited data

How the results depend on the processing

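Of the 50 calls among chaperone genes, 35 held in all 16 alternatives and 15 were lost in at least 1, and 16 of the 24 genes without a call gained one in at least 1. The length correction moved most: 23 chaperone genes were higher and 28 lower, 2 and 7 at the study's threshold, 5 heat-inducible members higher, 2 mitochondrial members higher and 4 lower, 2 ER members lower, 8 co-chaperones and regulators higher and 14 lower, 3 unfolded protein response genes and 1 immediate-early gene lower. ER members lower were also 2 with total counts and with limma on either FPKM scale. Among genes called with or without it, the log2 fold change reversed with the length correction for Hspb11 (-0.58), Dnajb6 (-0.021), Dnajc15 (-0.16), Dnajc19 (-0.34), Dnajc7 (-0.034), Cct4 (-0.26), Pfdn1 (-0.19), Pfdn2 (-0.38), Pfdn4 (-0.34), Pfdn6 (-0.80), Ahsa1 (-0.25), Cdc37 (-0.025), Fkbp4 (-0.011), Stub1 (-0.021), St13 (-0.31), Vbp1 (-0.25), Ddit3 (-0.46) and Creld2 (-0.48). A further 7 chaperone genes without a call in either changed sign (Hspa2, Hspa4, Hspa13, Hspa14, Dnajc9, Dnajc12 and Dnajc25), so that those above 0 went from 49 to 32. In that fit 22.5% of all genes were higher and 43.0% lower. Their median log2 fold change was -0.23, so a value just below 0 lay above it. Whether the relation of fold change to length is technical was not tested. As a share of estimated counts, the ratio of KO to WT was 1.08 for all members, 1.18 for Hsp110, 1.04 for DnaJ A, 1.03 for DnaJ B and 1.08 for Pfdn, against ratios under 1 in TPM. Leaving out 1 library gave 28 to 35 chaperone genes higher and 12 to 15 lower, 2 to 7 and 2 to 3 at the study's threshold, 3 to 6 ER members higher and 1 to 2 lower, and 1 to 3 mitochondrial members lower. With the replicate number as a block (replicate block), 35 chaperone genes were higher and 14 lower, and the call of Dnajb5 was lost. Deviations of libraries with the same number correlated at 0.03, -0.01 and 0.06, and 1 of 3 WT libraries correlated best with its own number, so the numbers do not pair the libraries. The cause was not tested for any of these differences. With 3 libraries per group, small differences are uncertain. So are those between the near copies Hspa1a and Hspa1b. With no stated strand of counting, those of Hspd1 against Hspe1 and other overlapping pairs are uncertain too. Genes near 3 counts could not be compared at this depth.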
